A study of Homo sapiens with 3 samples.

Results

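The kinase genes JAK1, JAK2, JAK3 and TYK2, the transcription factor genes STAT3, STAT5A and STAT5B, and the inhibitor genes SOCS1, SOCS2 and CISH were measured on Affymetrix expression arrays of a childhood leukemia line and its multidrug resistant derivative. These 10 genes were followed through every probe set that the array's annotation assigned to a single gene of the group, which gave 33 of the 54675 probe sets on the array. None of the 33 was shared with another gene, and all 33 were among the 46034 probe sets kept after those at or below 3.47 in every array, the 20th percentile of all values, had been removed. SupB15, a BCR-ABL positive B-cell precursor acute lymphoblastic leukemia (ALL) line that is labelled drug sensitive, had 1 array. SupB15-MR, labelled multiple drug resistant, had 2 arrays, called replicate 1 and replicate 2. According to the study's methods, SupB15-MR cells grew out of SupB15 cells that had been treated with mitoxantrone in medium conditioned by the bone marrow stromal line HS-5 and had then been kept without drug. They were thus survivors of a selection. The study's text speaks of separate SupB15-MR clones, and the description of replicate 2 names it SupB15-MR5, while that of replicate 1 gives no clone. Cells of all 3 arrays were grown in normal serum-containing medium without stromal cells, and arrays of cells in conditioned medium were not analysed here.

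In the JAK-STAT pathway, a cytokine binds its receptor and brings together the Janus kinases bound to the receptor's cytoplasmic tails. The kinases phosphorylate the receptor and then the STAT proteins, which pair, enter the nucleus and switch on target genes. Among these targets are SOCS genes and CISH, whose products bind the receptors or kinases and damp the signal, so that their transcripts are often read as an output of the pathway. In precursor B cells the IL-7 receptor signals through JAK1, JAK3 and STAT5, and the BCR-ABL kinase can phosphorylate STAT5 without a cytokine.

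CISH mRNA was lower in SupB15-MR on every probe set, with 2 of 3 called, and SOCS2 was lower on every probe set with none called. STAT5A was 3.22-fold higher on its only probe set, without passing the test, while STAT5B and JAK1 had probe sets that fell beside others that did not. JAK2, JAK3, TYK2, STAT3 and SOCS1 had no called probe set. A probe set was called at a fold change of at least 2 and an adjusted p of at most 0.05 from limma over all 46034 probe sets. Of the 33 probe sets, 1 rose (3.03%), 5 fell (15.2%) and 27 did not pass. Over the whole array 22.8% of probe sets were called, 13.1% as higher and 9.71% as lower, so that the share called among the 33 (18.2%) was near that of the array. Without a test, 2 of the 33 were at least 2-fold higher than SupB15 in both SupB15-MR arrays (6.06%, against 18.3% of all probe sets) and 7 were at least 2-fold lower (21.2%, against 15%). SupB15 lay above both SupB15-MR arrays on 17 of the 33 probe sets (51.5%, against 38.2% of all probe sets) and below both on 9 (27.3%, against 45.5%). The median log2 difference, SupB15-MR minus SupB15, was -0.19 over the 33 and 0 over all probe sets kept.

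**Figure D1:**
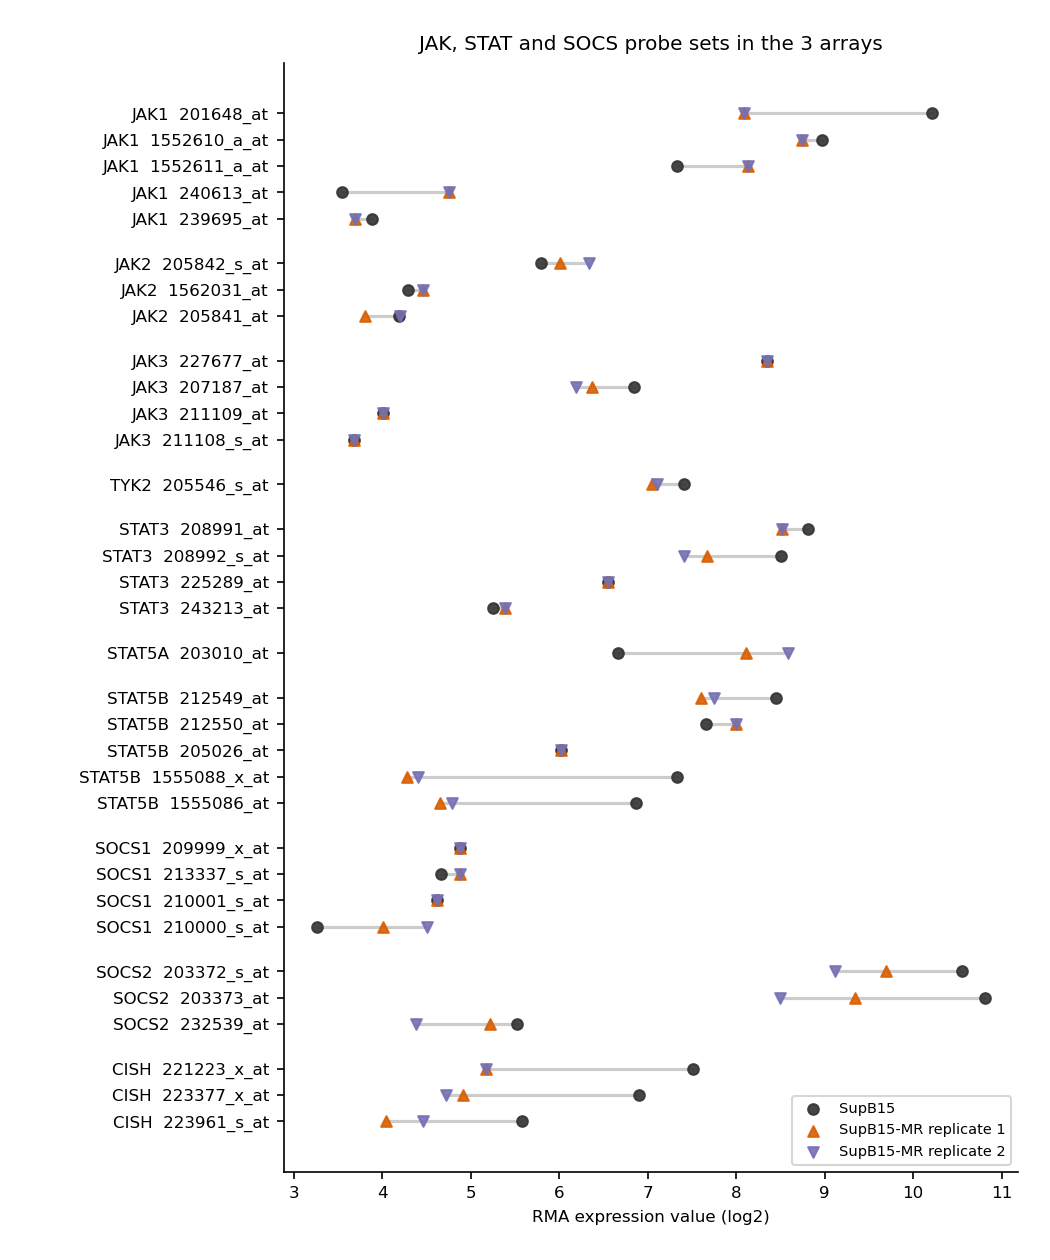
RMA expression value on the log2 scale (horizontal axis) of each of the 33 probe sets (rows, grouped by gene) in the SupB15 array (circle), SupB15-MR replicate 1 (triangle pointing up) and replicate 2 (triangle pointing down), with a line that joins the values of a probe set. The SupB15 circle is the rightmost symbol in all 3 CISH and all 3 SOCS2 rows and the leftmost in the STAT5A row.

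Some properties of the arrays bear on every value. The SupB15 array has no replicate, so that the spread behind the limma p-values came only from how far the SupB15-MR replicates differed. Each probe set had 1 residual degree of freedom, to which limma added a prior spread shared over all probe sets. The prior standard deviation was 0.00102 on 0.313 degrees of freedom, and 0.169 on 17.1 without probe sets identical in both SupB15-MR arrays. An exact permutation test of 1 array against 2 cannot go below p = 0.333. Both SupB15-MR arrays held the same value for 39.7% of the probe sets kept, and all 3 arrays did for 10.0%. Among the 33 the numbers were 16 (48.5%) and 6 (18.2%). A value repeated to the last digit has no residual spread, so that its adjusted p rests on the prior and carries no measure of replicate error. Of the 18289 kept probe sets with identical SupB15-MR values, 13620 had an adjusted p of at most 0.05 from limma. Many values were also held by several probe sets of the same array, 35.4% of all probe sets in SupB15 and 58.9% and 58.3% in SupB15-MR, and by 10, 17 and 20 of the 33. A difference that rests on such a value is not specific to the gene in its exact size. The array medians were 5.08 in SupB15 and 5.27 and 5.28 in SupB15-MR, a shift of 0.19 that is not subtracted from the differences below. The ACTB control probe sets had a 3′ minus 5′ difference of 0.80 in SupB15 and of 2.59 and 2.43 in SupB15-MR, whereas GAPDH had 0.10, -0.09 and -0.11, and the median of the 18S control probe sets was 6.49, 13.97 and 13.92. The part of these control differences in the results was not tested. Of 12 precursor B-cell markers, 11 were measured and had a median of 10.34 in SupB15 and of 10.32 and 10.34 in SupB15-MR. RAG2 and MME were called higher and VPREB1 and IGLL1 lower. RAG1 was also at least 2-fold higher in both replicates and EBF1 at least 2-fold lower, neither of them called. These 11 markers summed to 28009 in SupB15 and to 25195 and 24014 in SupB15-MR on the linear scale. Medians of the stromal, T-cell and myeloid markers lay between 3.44 and 4.96 in all 3 arrays, and CD3E, which was lower, was the only called gene of those lists. On the linear scale the 8 stromal markers summed to 568 in SupB15 and to 288 and 274 in SupB15-MR, the 6 T-cell markers to 150.2, 107 and 106, and the 5 myeloid markers to 213, 374 and 229. THY1, the most intense stromal marker in SupB15, had 8.14 there and 5.15 and 4.69 in SupB15-MR. DCN and CSF1R were also at least 2-fold lower in both replicates, and MPO was at least 2-fold higher. None of these genes was called. The part of these levels in the results was not tested. Bulk values cannot tell fewer cells from less RNA per cell.

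Among the Janus kinases, JAK1, which pairs with the IL-7, interferon and gp130 receptors, gave conflicting probe sets. Probe set 201648_at had 10.21 in SupB15 and 8.09 in both SupB15-MR replicates, a log2 difference of -2.12 (adjusted p = 0.000645 from limma), and fell. It was the most intense of the 5 JAK1 probe sets over the 2 groups. Its SupB15-MR values were held by 13 and 9 probe sets of their arrays. Its adjusted p ran from 2.31e-08 to 0.143 over the alternative settings. The highest came from an ANOVA of the 3 arrays, under which it was not called. That ANOVA called 0 of the 27745 probe sets it could test, so that a call lost under it says nothing particular to a gene. Probe set 240613_at had 3.55 in SupB15 and 4.75 in both replicates, a rise of 1.20 (adjusted p = 0.000645 from limma). Its SupB15 value lay just above the filter of 3.47, and its values in the SupB15-MR arrays were identical, so that the ANOVA could not test it (adjusted p from 4.14e-05 to 0.00758 over the other settings). The other 3 JAK1 probe sets stayed under 2-fold: 1552611_a_at had 7.33 in SupB15 and 8.13 in both replicates, 1552610_a_at had 8.97 against 8.74, and 239695_at had 3.88 against 3.69. The mean difference over the 5 probe sets was -0.11 and the median -0.19, so that the array gave no common direction for JAK1. With 1552610_a_at standing for the gene, the choice made by the highest mean over the 3 arrays, the JAK1 difference was -0.23 in place of -2.12.

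JAK2, the kinase of the erythropoietin, growth hormone and common beta chain receptors, had differences under 2-fold on its 3 probe sets. The most intense, 205842_s_at, had 5.79 in SupB15 and 6.01 and 6.33 in SupB15-MR (difference 0.38, adjusted p = 0.396 from limma). The others, 1562031_at and 205841_at, differed by 0.17 and -0.19, at values between 3.81 and 4.46.

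JAK3, which binds the common gamma chain and is largely a kinase of lymphoid cells, had the same value in all 3 arrays on 3 of its 4 probe sets, 8.35 on 227677_at, 4.01 on 211109_at and 3.68 on 211108_s_at. The value of 211109_at was shared with many others, being held by 275 probe sets of the SupB15 array and 587 and 564 of the SupB15-MR arrays. The fourth, 207187_at, had 6.84 in SupB15 and 6.37 and 6.19 in SupB15-MR, a difference of -0.56 (adjusted p = 0.147 from limma). TYK2, a partner of JAK1 at the interferon receptors, was represented by 205546_s_at alone, with 7.41 in SupB15 and 7.04 and 7.10 in SupB15-MR (difference -0.34, standard error 0.0432, adjusted p = 0.0773 from limma). In both genes the SupB15 value lay above both SupB15-MR values wherever the arrays differed, by less than 2-fold. Over the 13 kinase probe sets, 1 rose (7.69%, against 13.1% of all probe sets), 1 fell (7.69%, against 9.71%) and 11 did not pass. The median difference was 0.

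STAT5A and STAT5B encode closely related proteins that transmit IL-7, erythropoietin and BCR-ABL signals. STAT5A, on 203010_at, had 6.66 in SupB15 and 8.11 and 8.58 in SupB15-MR. Both SupB15-MR values were above that of SupB15 by more than 2-fold, and they were 0.47 apart from each other. The difference was 1.69 (standard error 0.359) with an adjusted p of 0.131 from limma, so that STAT5A did not pass the test. With the variance prior of limma taken from probe sets that differ between the SupB15-MR arrays, the adjusted p was 2.66e-06, and over all alternative settings it ran from 1.82e-06 to 0.238.

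STAT5B had 5 probe sets. Probe set 1555088_x_at had 7.33 in SupB15 and 4.27 and 4.40 in SupB15-MR, a fall of 7.99-fold (log2 difference -3.0, standard error 0.0952, adjusted p = 0.0193 from limma). Probe set 1555086_at had 6.87 in SupB15 and 4.65 and 4.79 in SupB15-MR, a fall of 4.42-fold (log2 difference -2.14, standard error 0.104, adjusted p = 0.0299 from limma). In both of these probe sets the replicates lay close together and far below SupB15. The annotation gives the same source sequence for both, so that they are not independent of each other. The suffix _x_at of the former is the one Affymetrix gives to probe sets that may cross-hybridize. The replicate 1 value of 1555088_x_at was held by 361 probe sets of that array. Over the alternative settings the adjusted p ran from 2.23e-10 to 0.144 on 1555088_x_at and from 2.30e-08 to 0.148 on 1555086_at. The highest values came from the ANOVA, which called no probe set of the array. The most intense probe set, 212549_at, had 8.45 in SupB15 and 7.60 and 7.75 in SupB15-MR, a difference of -0.78 that was under 2-fold (adjusted p = 0.0853 from limma). Probe set 212550_at had 7.66 in SupB15 and 8.0 in both replicates, and 205026_at had 6.02 in all 3 arrays. STAT5B was thus lower on 3 probe sets, higher on 1 and equal on 1. The mean over the 5 was -1.12, and which transcript each probe set reads was not analysed here.

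STAT3, the factor of the IL-6 and gp130 family receptors, had 4 probe sets with differences from -0.97 to 0.13. Probe set 208991_at, the most intense, had 8.81 in SupB15 and 8.52 in both replicates (difference -0.29). Probe set 208992_s_at had 8.51 in SupB15 and 7.67 and 7.41 in SupB15-MR, a difference of -0.97 (standard error 0.195, adjusted p = 0.123 from limma) just under 2-fold. With each array centred on its median it was -1.16 and was called (adjusted p = 0.0478 from limma). Its adjusted p ran from 0.000374 to 0.230 over the alternative settings. Probe set 225289_at had 6.55 in all 3 arrays after rounding, and 243213_at had 5.26 in SupB15 and 5.38 in both replicates.

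**Figure D2:**
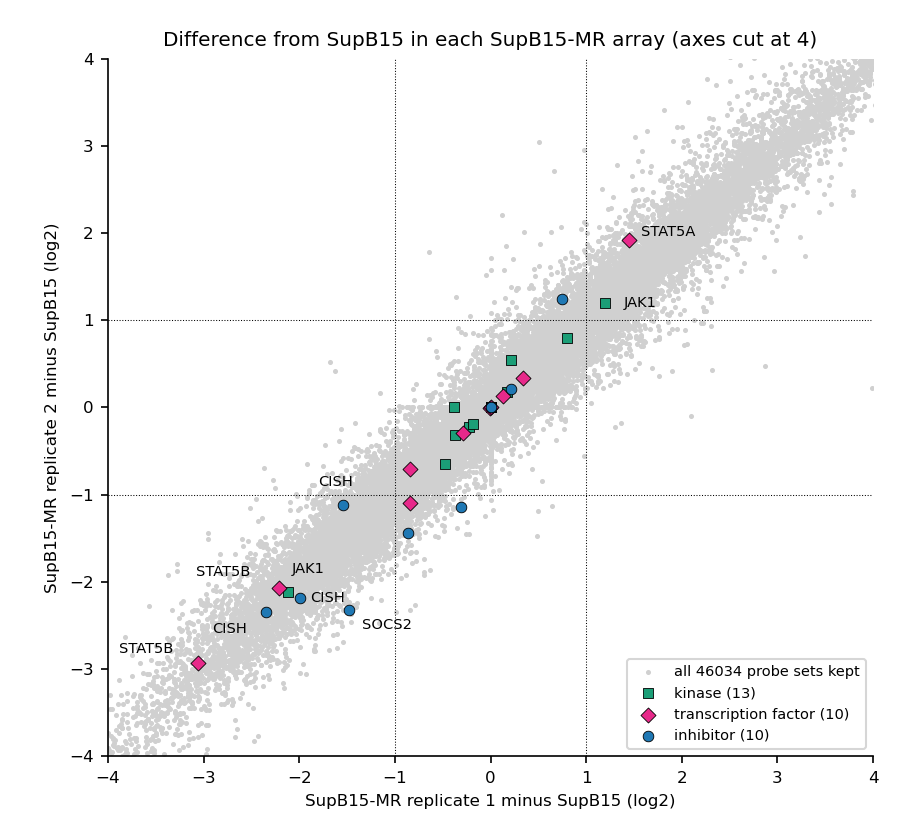
Log2 difference from the SupB15 array in SupB15-MR replicate 1 (horizontal axis) and replicate 2 (vertical axis) for all 46034 probe sets kept (grey) and for the 13 kinase (squares), 10 transcription factor (diamonds) and 10 inhibitor (circles) probe sets, with dotted lines at 2-fold and both axes ending at 4. Named points are the 9 probe sets at least 2-fold apart from SupB15 in both replicates, 7 lower and 2 higher.

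CISH, the cytokine-inducible SH2 protein that occupies STAT5 docking sites on receptors, is a textbook STAT5 target. STAT5 dimers bind DNA at TTCNNNGAA, in which N is any base. The stretch of DNA before the CISH start site is shown because it holds this motif more often than nearly any other promoter on the same measure. The sequence is from RefSeq, build GRCh38.p14, chr3:50611775-50612024 on the minus strand, read 5′ to 3′ and ending at the base before the annotated start. Capitals mark the motif matches.
CISH: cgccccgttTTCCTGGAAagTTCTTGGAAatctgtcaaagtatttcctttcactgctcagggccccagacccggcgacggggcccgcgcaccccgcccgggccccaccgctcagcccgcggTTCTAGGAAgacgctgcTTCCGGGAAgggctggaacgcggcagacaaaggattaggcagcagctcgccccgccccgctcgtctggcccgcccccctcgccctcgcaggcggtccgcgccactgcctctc
The 4 matches begin 241, 230, 129 and 112 bases before the start. Of 35116 RefSeq windows of the same 250 bases, 6.57% held the motif, which reads the same on both strands, and 5 windows (0.0142%) held 4 or more. Of the 10 genes, 9 had a window, 16 windows in all, and CISH was the only gene of the 9 with a match. SOCS2 was not matched. Such letters are a description of the sequence and were not tested for binding.

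CISH mRNA was lower in SupB15-MR on all 3 of its probe sets. Probe set 221223_x_at had 7.52 in SupB15 and 5.17 in both replicates, a fall of 5.08-fold (log2 difference -2.34, adjusted p = 0.000645 from limma). Probe set 223377_x_at had 6.90 in SupB15 and 4.91 and 4.72 in SupB15-MR, a fall of 4.26-fold (log2 difference -2.09, standard error 0.144, adjusted p = 0.0425 from limma). The third, 223961_s_at, had 5.58 in SupB15 and 4.04 and 4.46 in SupB15-MR, a difference of -1.33 that did not pass (standard error 0.318, adjusted p = 0.147 from limma). Each of the 3 was lower in both replicates by 2-fold or more. The SupB15-MR values of 221223_x_at were identical and were held by 108 and 185 probe sets of their arrays, while those of 223377_x_at were held by no other probe set. Over the alternative settings the adjusted p ran from 9.10e-09 to 0.00758 on 221223_x_at, which the ANOVA could not test. On 223377_x_at it ran from 3.62e-08 to 0.156, the highest in the ANOVA, which called no probe set of the array. All 3 carry a suffix that Affymetrix gives to probe sets able to read more than 1 transcript (_s_at) or to cross-hybridize (_x_at), and CISH had no probe set without such a suffix. The annotation assigned them to CISH alone.

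SOCS2, an inhibitor of growth hormone signalling whose transcript STAT5 also induces, was lower on all 3 probe sets without a call. Probe set 203373_at had 10.81 in SupB15 and 9.34 and 8.49 in SupB15-MR, a difference of -1.90 (standard error 0.641, adjusted p = 0.210 from limma). Probe set 203372_s_at had 10.56 in SupB15 and 9.69 and 9.11 in SupB15-MR, a difference of -1.15 (standard error 0.437, adjusted p = 0.236 from limma). The third, 232539_at, had 5.52 in SupB15 and 5.21 and 4.38 in SupB15-MR (difference -0.73, adjusted p = 0.507 from limma). In every case SupB15 was highest and replicate 2 lowest. The replicates themselves differed by 0.58 to 0.85 on these probe sets, while the median difference between the SupB15-MR arrays over all probe sets kept was 0.0467. Gaps of at least the size seen on 203372_s_at, 203373_at and 232539_at were found in 3.50%, 0.919% and 1.01% of all probe sets kept. Both SOCS2 probe sets above 8 passed with the prior from differing probe sets, with adjusted p-values from limma of 5.01e-06 for 203373_at and 0.000287 for 203372_s_at. Over all alternative settings the adjusted p ran from 3.47e-06 to 0.314 on the former and from 0.000210 to 0.338 on the latter.

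SOCS1, which binds and inhibits JAK kinases downstream of interferon, had low values and no call. Probe sets 209999_x_at and 210001_s_at had 4.88 and 4.62 in all 3 arrays, and 213337_s_at had 4.67 in SupB15 and 4.88 in both replicates. In SupB15-MR the value 4.88 was held by 298 and 173 probe sets. Probe set 210000_s_at had 3.26 in SupB15, below the filter value, and 4.01 and 4.5 in SupB15-MR, a difference of 1.00 (standard error 0.370, adjusted p = 0.232 from limma). SOCS1 therefore did not share the lower values of CISH and SOCS2 on any probe set. Over the 10 inhibitor probe sets 2 fell (20%, against 9.71% of all probe sets), none rose and 8 did not pass. The median difference was -0.94, and 4 were at least 2-fold lower in both replicates (40%, against 15%). Both probe sets that fell were of CISH, as were 3 of these 4, the other being of SOCS2. Probe sets of 1 gene are not independent of each other.

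The other genes of the pathway were taken from lists of receptor chains, ligands, further inhibitors and target genes, 84 genes in all. Each gene was represented by its probe set with the highest mean of the group means. Of the 84 genes, 69 were tested, 8 were removed by the filter and 7 had no probe set of their own. Among the 69, 8 rose (11.6%), 6 fell (8.70%) and 55 did not pass, with a median difference of 0. Of all 17531 genes represented in this way, 10.6% were called as higher and 9.81% as lower, again with a median of 0. Together 20.4% of those genes were called. Of the 10 members, represented in the same way, CISH and JAK1 were called, both as lower.

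Of 30 receptor chains tested, 1 rose (3.33%, against 10.6% of all genes) and 3 fell (10%, against 9.81%). None of the 9 common gamma chain and TSLP receptor chains passed. IL7R, the receptor chain of precursor B cells, had 11.07 in SupB15 and 11.19 in both replicates, and CRLF2, the TSLP receptor chain, had 4.01 in all 3 arrays; these genes were chosen after their values were seen. Of 4 common beta chain receptor chains none passed, and CSF2RB, the shared chain, had 5.67 in SupB15 and 7.46 and 7.0 in SupB15-MR (difference 1.56, adjusted p = 0.136 from limma).

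Of 6 gp130 family chains, IL6ST (gp130 itself) and LIFR fell, by log2 differences of -1.17 and -1.29. Not every probe set went that way. For IL6ST, 3 of 7 were higher by 2-fold or more in both replicates, up to 2.12, and the median over the 5 LIFR probe sets was 0. Of 5 single-chain receptors EPOR, the erythropoietin receptor, fell by 1.47 on the probe set that represents it. Of the 5 EPOR probe sets, 2 were higher by 2-fold or more, up to 1.72. GHR, the growth hormone receptor, had 6.93 in SupB15 and 3.32 and 2.88 in SupB15-MR on its only probe set, a difference of -3.82 that did not pass (adjusted p = 0.0539 from limma). Both GHR values in SupB15-MR lay below the filter value. Of 6 interferon and IL-10 receptor chains IFNGR1, the ligand-binding chain for interferon gamma, rose by 2.23, from 8.11 in SupB15 to 10.39 and 10.28. Differences over the 3 IFNGR1 probe sets ran from 0.73 to 2.23. IFNGR2, the signalling partner of IFNGR1, had a difference of -1.38 and did not pass (adjusted p = 0.0771 from limma). None of the 8 ligand genes tested was called, and 7 others lay at or below the filter in every array.

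Among 7 further STAT and SOCS genes, SOCS3, the gp130 feedback inhibitor, rose by 1.23, with 4.73 in SupB15 and 5.93 and 6.01 in SupB15-MR. Differences over the 4 SOCS3 probe sets ran from 0 to 1.23. SOCS6 fell by 1.13, with a range up to 0.61 over its 3 probe sets. SOCS7 had 7.27 in SupB15 and 8.93 and 8.71 in SupB15-MR, a difference of 1.55 that did not pass (adjusted p = 0.0655 from limma). Differences over the 3 SOCS7 probe sets ran from 0.87 to 3.46. Of 10 genes listed as inhibitors outside the SOCS family 4 rose (40%, against 10.6% of all genes) and 1 fell (10%, against 9.81%). Without a test, 4 of the 10 were at least 2-fold higher in both replicates (against 14.5% of all genes) and 3 at least 2-fold lower (against 15.1%). The median difference of the list was 0.006. Among those lower, PTPN11 (-2.97) and CBL (-1.32) were not called (adjusted p = 0.0677 and 0.0751 from limma). PTPRC, the CD45 phosphatase that can dephosphorylate JAKs, had 3.69 in SupB15 and 11.21 and 10.95 in SupB15-MR (difference 7.39, adjusted p = 0.0161 from limma). That SupB15 value lay near the filter value of 3.47. Differences over the 5 PTPRC probe sets ran from 0.37 to 7.39, with 3 at least 2-fold higher in both replicates. PTPN1, a phosphatase of JAK2 and TYK2, rose by 1.63, with differences from 0.58 to 1.63 over its 4 probe sets. PTPN6, the SHP-1 phosphatase, had 9.48 in SupB15 and 7.68 and 7.80 in SupB15-MR, a log2 difference of -1.74 (adjusted p = 0.0315 from limma). PIAS2, a SUMO ligase that restrains STATs, rose by 1.55, but the 9 PIAS2 probe sets ranged from -2.05 to 1.98. PIAS1 was the remaining gene of this list that rose, by 1.27, with a median of 0 over its 3 probe sets and a lowest difference of -0.16.

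**Figure D3:**
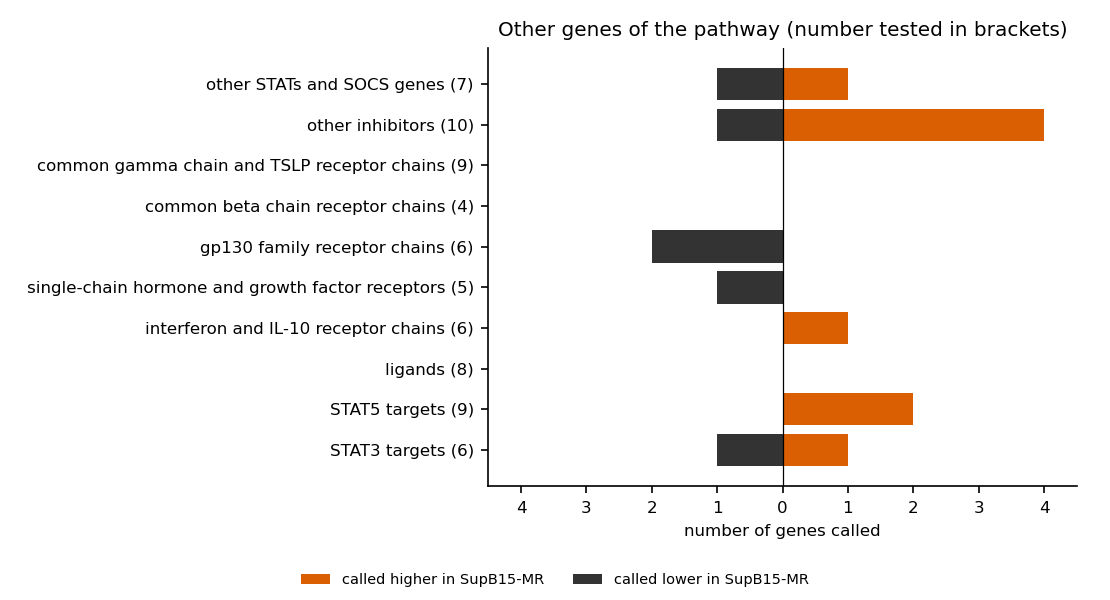
Number of genes called as higher (orange, to the right of 0) and lower (black, to the left) in SupB15-MR in each of 10 lists of other pathway genes (rows), each followed by the count of genes tested. The list of other inhibitors has 4 genes higher and 1 lower, and the common gamma chain, common beta chain and ligand lists have none.

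STAT5 targets other than CISH and the SOCS genes were also represented by 1 probe set a gene. Of 9 tested, 2 rose (22.2%, against 10.6% of all genes), none fell and 7 did not pass, and the median difference was 0.80. The list does not mark whether STAT5 raises or lowers a target. PIM1, a serine kinase induced by STAT5, had 5.66 in SupB15 and 9.49 and 9.31 in SupB15-MR, a rise of 3.73 (standard error 0.138, adjusted p = 0.0225 from limma). PIM2, a kinase of the same family, had 5.80 in SupB15 and 7.69 in both replicates, a rise of 1.89 with identical values. The other 7, among them MYC, CCND2 and CCND3, had differences from -0.09 to 1.58. Other probe sets of 2 of them went both ways. The 6 of MCL1 ran from -2.08 to 5.30 with a median of 1.61. The 4 of BCL2L1 ran from -1.28 to 2.29 with a median of 0.79. For MCL1, 3 probe sets exceeded SupB15 by 2-fold or more in both replicates, and 1 lay below it by that much. The same counts for BCL2L1 were 2 above and 1 below. Each of these genes also has other regulators, and STAT5 phosphorylation was not measured on the arrays. Of 6 STAT3 targets, SOCS3 rose as above, and TIMP1, an inhibitor of metalloproteinases, had 8.58 in SupB15 and 5.06 and 4.90 in SupB15-MR, a log2 difference of -3.60 (adjusted p = 0.0210 from limma).

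**Figure D4:**
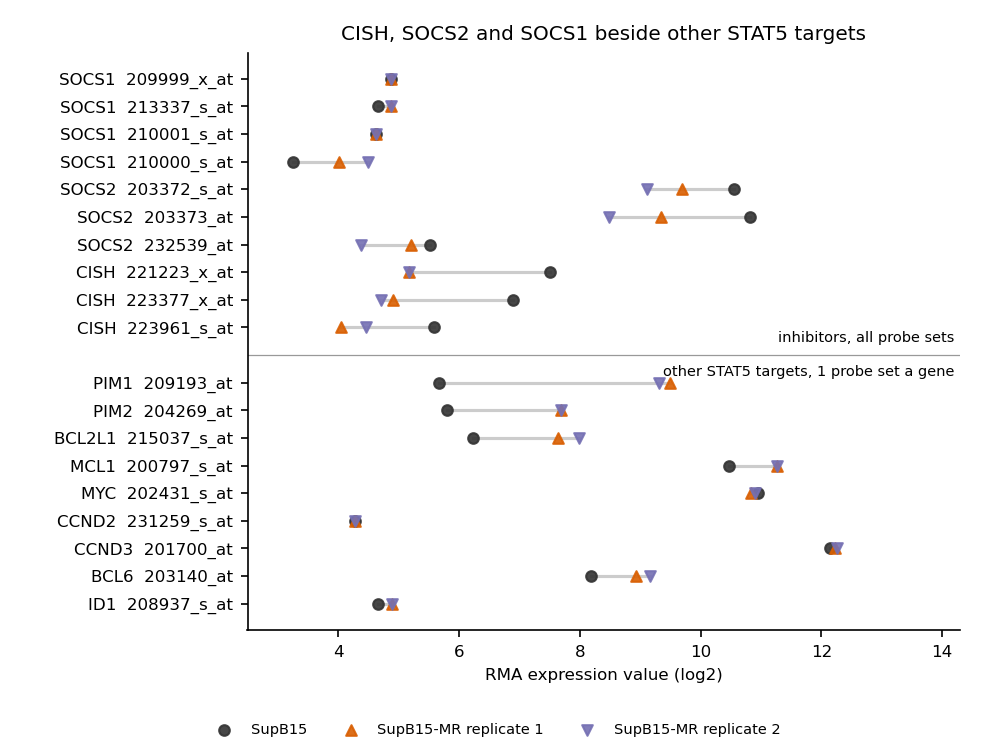
RMA expression value on the log2 scale (horizontal axis) in the SupB15 array (circle), SupB15-MR replicate 1 (triangle pointing up) and replicate 2 (triangle pointing down) of every SOCS1, SOCS2 and CISH probe set (upper rows) and of 9 other STAT5 targets, 1 probe set a gene (lower rows). SupB15 lies to the right of both SupB15-MR arrays for CISH and SOCS2 and to the left for PIM1 and PIM2.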

How the data were processed

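The authors labelled amplified cDNA from total RNA (NuGEN Ovation Biotin system) and used Affymetrix arrays. The deposited values are log2 expression values, normalised and summarised by the authors with RMA in apt-probeset-summarize, for 54675 probe sets in 1 SupB15 and 2 SupB15-MR arrays. RMA fits probe sets over the arrays it is run on, and can return equal values for several arrays. Which arrays were normalised together is not given in the sources used here. The labels call the SupB15-MR arrays biological replicates, and the study's text speaks of clones. The p-values measure only the spread between these arrays. Arrays have no read depth, and their number limits the precision.

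Probe sets with all 3 values at or below the 20th percentile (3.47) were removed (8641), which left 46034. The methods name this filter, an adjusted p of 0.05 and 2-fold without saying in how many arrays the filter applied. Differences between groups were fitted with limma 3.58.1 in R 4.3.3 (lmFit, eBayes, Benjamini-Hochberg over the 46034), with the residual spread of identical SupB15-MR values set to 0, and the code was tested on simulated data with 200 changed probe sets. An ANOVA of the 3 arrays, other scalings and variance priors, no filter, other choices of probe set and leaving out a replicate were alternatives. The methods name an ANOVA, but the study compared more groups than these arrays hold. Gene names came from the platform's annotation (41097 probe sets with 1 gene, 1801 with several, 11777 with none); 41043 of the 41097 matched RefSeq GRCh38.p14 by gene identifier. Named in the text were all members with every probe set and up to 4 genes of each list, those called by size and then, where fewer than 2 were called, those 2-fold or more from SupB15 in each SupB15-MR array. IL7R, CRLF2, SOCS7, PIAS1, PTPN11, CBL, MCL1, BCL2L1, MYC, CCND2 and CCND3 and the marker genes fall outside that rule. The members and lists were chosen with earlier results of these data known.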

Additional observations from a re-analysis of the deposited data

How the results depend on the processing

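All 6 member probe sets called in the report were also called with median centring, quantile normalization, no filter and the variance prior from differing probe sets. That prior called 2 member probe sets as higher and 8 as lower. The ANOVA of the 3 arrays called 0 higher and 0 lower of the 17 member probe sets it could test, 4 of them below 0.05 before adjustment, and over the whole table it called 0 of 27745, with 6778 that passed both 2-fold and 0.05 before adjustment. Without probe sets of suffix _s_at or _x_at, 2 were called lower and 3 were at least 2-fold lower. That setting leaves out, among others, every probe set of CISH, SOCS1 and TYK2, and 1555088_x_at of STAT5B. With either SupB15-MR array left out, from 2 to 3 member probe sets stood 2-fold or more above SupB15 and from 7 to 10 below it, the larger numbers being those without replicate 1. Of the other pathway genes, 10 were called lower, in place of 6, with median centring, with quantile normalization and with the prior from differing probe sets. PTPN11, CBL, GHR and IFNGR2 were the genes added. On the deposited values the 6 PTPN11 probe sets ran from -2.97 to 3.32, with 2 at least 2-fold higher in both replicates and 1 lower. Over the 5 of CBL the median was 0.99, with 2 at least 2-fold higher and 1 lower. Over all probe sets 6021 were higher and 4470 lower, 6552 and 7762 with median centring, 6492 and 6443 with quantile normalization, and 9005 and 7471 with the prior from differing probe sets. Of 77 comparisons of single member genes, 69 were counted as the same. A call needs both the adjusted p and 2-fold. No adjusted p exists with a replicate left out or with the mean over all probe sets, so no call could be kept there. In 9 of the 69 the adjusted p alone crossed 0.05, and in 4, of JAK3 and SOCS1, a difference of 0 became negative under scaling (-0.10 to -0.19). Another 7 moved with the mean over all probe sets, and JAK1 lost its call with another probe set (-0.23). No paired analysis was possible because SupB15 has a single array with no replicate number in its label.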
